A study of Mus musculus with 7 samples.

Results

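The 10 genes described here are the transcription factor NRF2 (*Nfe2l2*), its inhibitor *Keap1* and 8 of their antioxidant targets, *Gclc*, *Gclm*, *Gsr*, *Txnrd1*, *Srxn1*, *G6pdx*, *Nqo1* and *Hmox1*. They are named by symbol in a list that was drawn up with earlier results of these data known. All 10 were found among the 14819 rows of the table of read counts per gene and passed the filter on low counts. The samples were primary hepatocytes, the main metabolic cells of liver tissue, from WT mice (n = 4) and from mice lacking *Wdr6* in the whole body (WDR6-WKO, n = 3). WDR6 partners a methyltransferase that modifies transfer RNA, and the study sequenced these cells to look for ways in which WDR6 regulates *Fasn*, the fatty acid synthase gene. The knockout was made with CRISPR–Cas9 and is present in every cell type of the animal, so that changes in other tissues before isolation cannot be told apart from changes that arise in the hepatocyte. Hepatocytes came from male mice by collagenase perfusion, were grown in William's E medium with serum, kept overnight in culture, and received no treatment in either group. C57BL/6J is the strain named for purchased mice, for which an age is stated that is not restated for the animals of these samples. The labels do not say whether each sample is 1 mouse, so p-values measure the spread between these samples.

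NRF2 is the main transcriptional switch of the defence against oxidants and electrophiles. In resting cells KEAP1 holds it in the cytoplasm and hands it to a CUL3 ubiquitin ligase for degradation. When cysteines of KEAP1 are modified, NRF2 escapes, pairs with a small MAF protein and binds antioxidant response elements near its target genes. These targets make glutathione, reduce thioredoxin and peroxiredoxin, supply NADPH and break down haem. Much of this control acts on the NRF2 protein, which mRNA counts do not measure.

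Upstream sequences are shown for the members with a match to the core of the antioxidant response element, TGACNNNGC on either strand, so that the letters stand beside the values that follow. The windows, from RefSeq on GRCm38.p6, run from 250 bases before to 50 bases after a transcription start, and 7 of the 10 members matched at least 1 of them. *Hmox1*, *Gclc* and *Gsr* had no entry. Each stretch reads 5′ to 3′ along the strand of its gene, with the match in capitals. A match on the opposite strand appears as GCNNNGTCA. For *Srxn1* the stretch shows instead its pair of matches to TGANTCA, the AP-1 motif, which shares its first letters with the antioxidant response element and was searched on both strands.
*Nfe2l2*, chr2:75704875-75704913, minus strand: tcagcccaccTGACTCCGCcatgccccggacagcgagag
*Gclm*, chr3:122245403-122245451, plus strand: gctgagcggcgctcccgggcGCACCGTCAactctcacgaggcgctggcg
*Txnrd1*, chr10:82859094-82859142, plus strand: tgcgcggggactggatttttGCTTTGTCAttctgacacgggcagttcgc
*G6pdx*, chrX:74428909-74428957, minus strand: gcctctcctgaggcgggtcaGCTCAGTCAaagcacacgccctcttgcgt
*Srxn1*, chr2:152105402-152105505, plus strand: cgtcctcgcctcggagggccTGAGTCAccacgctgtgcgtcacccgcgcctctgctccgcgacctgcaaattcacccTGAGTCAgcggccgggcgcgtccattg

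The match lay 240 bases before the start in *Nfe2l2*, 134 in *Gclm*, 92 in 1 of the 3 windows of *Txnrd1* and 57 in *G6pdx*. *Srxn1* also held the core motif, at base 29 after its start, and its AP-1 motifs lay 102 and 45 bases before it. The nearer of these, read with the gc that follows it, differs from the core motif only by a G in place of its first C. It was therefore not counted as a core match, although it is close to one. The windows of *Keap1* and *Nqo1* and the other windows of *Txnrd1* held neither the core nor the AP-1 motif. Sequence farther upstream was not searched, so this does not show that these genes lack the element. Of all 32851 RefSeq windows of the same length, 12.4% held the core motif and 7.81% the AP-1 motif, so a match is common and describes only the letters of the window.

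The libraries held 17816913 to 23668940 counted reads, and the spread between replicates of a group, a biological coefficient of variation of 7.40%, exceeded counting error for well-expressed genes. Levels are CPM, read counts relative to a fixed library total, after scaling by edgeR's TMM factors. A gene was called at a Benjamini-Hochberg adjusted p under 0.05, over all 14779 genes tested with the quasi-likelihood method of edgeR, and every edgeR adjusted p below is this value. *Wdr6* itself was at 40.6 to 49.0 CPM in WT and 2.23 to 2.58 in WDR6-WKO libraries, lower in each of the 3 as labelled. WDR6-WKO replicate 3 stood apart. Its median absolute difference in log2 CPM from the libraries of its own group was 0.18, against 0.10 to 0.15 for the other 6. Results are therefore also given without it. That fit drops the library most unlike its group, which tends to lower the spread. Smaller p-values and added calls there are therefore no separate support.

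*Nfe2l2* and *Gclc* were lower and *Srxn1* was higher in WDR6-WKO hepatocytes, and the other 7 members did not pass the test. Of all genes tested, 983 (6.65%) were called higher and 914 (6.18%) lower, 12.8% in all. Called members made up 30% of the 10, a count of 3 genes. The members did not move one way. Their log2 fold changes were positive for 5 and negative for 5, with a median of -0.02 (0.00 with library sizes alone) beside 0.01 over all genes tested. The CPM ranges of the groups were separate for 6 members, 4 higher and 2 lower, where 23.5% of all genes tested had separate ranges. With library sizes alone in place of TMM factors, higher genes made up 63.5% of the calls over the whole table, instead of 51.8%, and *G6pdx* joined *Srxn1* among the members called higher. Without WDR6-WKO replicate 3, 4233 of 14796 genes were called, 2150 higher and 2083 lower, instead of 1897 with all 7 libraries. Among the members 2 were higher and 2 lower in that fit. Counts of calls given below for the fit without replicate 3 stand beside this larger number of calls over all genes.

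**Figure D1:**
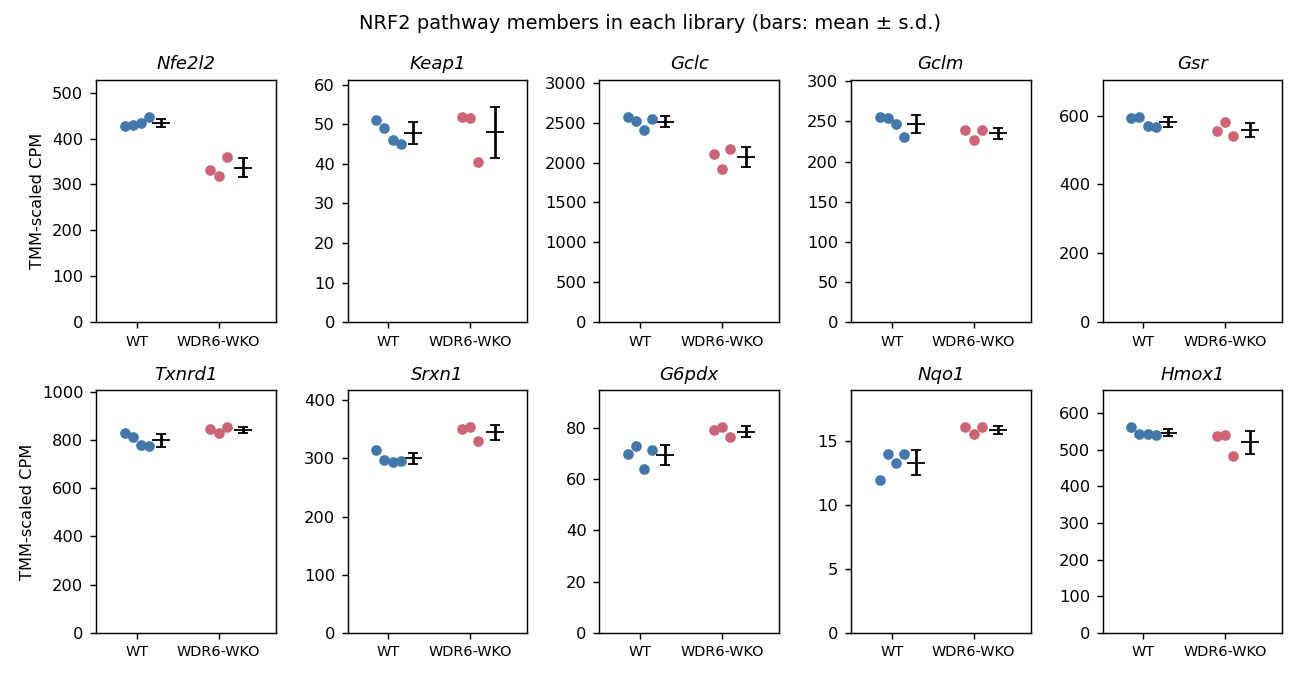
Level of each of the 10 NRF2 pathway members in TMM-scaled CPM (vertical axes from 0, a scale per gene) in the 4 WT libraries (blue) and the 3 WDR6-WKO libraries (red), with mean ± s.d. in black beside the points. The WDR6-WKO points of *Nfe2l2* and *Gclc* all lie below the WT points, those of *Srxn1*, *G6pdx*, *Nqo1* and *Txnrd1* all lie above them, and the groups overlap in the other 4 genes.

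*Nfe2l2*, at chr2:75675513-75704641 of GRCm38 on the minus strand, encodes NRF2. It was counted at 427, 429, 433 and 448 CPM in WT replicates 1 to 4 and at 332, 318 and 360 CPM in WDR6-WKO replicates 1 to 3. Every WDR6-WKO library was below every WT library, and replicate 3 was the nearest to them. As mean ± s.d., the level was 434 ± 9.36 CPM over the 4 WT and 337 ± 21.4 CPM over the 3 WDR6-WKO libraries, and it fell by 22.4%. The log2 fold change was -0.37 (standard error 0.05, 95% interval -0.47 to -0.26), with an edgeR adjusted p of 1.48e-04. An exact two-sided permutation test over the libraries gave p = 0.0286, the smallest that 4 samples against 3 allow. Without WDR6-WKO replicate 3 the log2 fold change was -0.42 (edgeR adjusted p = 1.56e-09).

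*Keap1*, at chr9:21229730-21239361 on the minus strand, encodes the protein that holds NRF2 for degradation. It stood at 51.1, 49.2, 46.1 and 45.0 CPM in WT and at 51.9, 51.6 and 40.5 CPM in WDR6-WKO libraries. The WDR6-WKO group held both the highest and the lowest value, the lowest being replicate 3. The log2 fold change was 0.01 (95% interval -0.17 to 0.18, edgeR adjusted p = 0.967), and without replicate 3 it was 0.11 (-0.01 to 0.23, edgeR adjusted p = 0.179). Exons of *Keap1* overlap those of the antisense gene *Gm16754* over 510 bases. The strand used in counting is not stated, but *Gm16754* itself was at no more than 1.80 CPM in any library.

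Glutamate–cysteine ligase makes the first and rate-limiting step of glutathione synthesis, and consists of the catalytic subunit GCLC and the modifier subunit GCLM. *Gclc* (chr9:77754535-77794485, plus strand) was at 2575, 2526, 2408 and 2543 CPM in WT and at 2109, 1924.5 and 2171 CPM in WDR6-WKO libraries. The groups did not overlap, and replicate 3 was again nearest to WT. The level, 2513 ± 73.2 CPM over the WT and 2068 ± 128 CPM over the WDR6-WKO libraries, fell by 17.7%. Its log2 fold change was -0.28 (standard error 0.05, 95% interval -0.39 to -0.18, edgeR adjusted p = 0.00147). The exact permutation test gave p = 0.0286. Without WDR6-WKO replicate 3 the log2 fold change was -0.32 (edgeR adjusted p = 1.02e-06).

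*Gclm*, on chromosome 3 at 122245557 to 122270732, stood at 256, 254, 247 and 231 CPM in WT and at 239, 227 and 239 CPM in WDR6-WKO libraries. The groups overlapped. Its log2 fold change was -0.07 (95% interval -0.17 to 0.04, edgeR adjusted p = 0.386). Exons of *Gclm* overlap *Gm6061* on the same strand and *Gm17494* on the opposite strand. In those genes or in *Ppia* occur 4.58% of the 50-base sequences of *Gclm*, so its counts are uncertain. *Ppia* was at 537 to 937 CPM in WT and at 975 to 999 CPM in WDR6-WKO libraries. These ranges are separate, but *Ppia* was not called (log2 fold change 0.36, edgeR adjusted p = 0.327). *Gsr* encodes glutathione reductase, which regenerates glutathione from its oxidised form with NADPH. It was at 593, 597, 569 and 567 CPM in WT and at 556, 581 and 540 CPM in WDR6-WKO libraries, which overlap. Its log2 fold change was -0.06 (95% interval -0.15 to 0.04, edgeR adjusted p = 0.449).

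The count of *Gclc* relative to *Gclm*, a ratio chosen after the values had been seen, was 10.1, 9.95, 9.76 and 11.0 in WT and 8.81, 8.47 and 9.07 in WDR6-WKO libraries. It was lower in every WDR6-WKO library, with a log2 difference of -0.21. Because the genes of this ratio and of the other two were picked for their values, the ratios are a description and carry no test. The ratio of *Txnrd1* to *Gsr*, the reductases of the thioredoxin and glutathione systems, was 1.36 to 1.39 in WT and 1.43 to 1.58 in WDR6-WKO libraries. Only the ratio of *Nfe2l2* to *Keap1*, among the 3, overlapped between the groups, at 8.36 to 9.94 in WT and 6.17 to 8.89 in WDR6-WKO libraries, the highest of the latter being replicate 3. Each ratio divides values of the same library, so the scaling cancels.

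**Figure D2:**
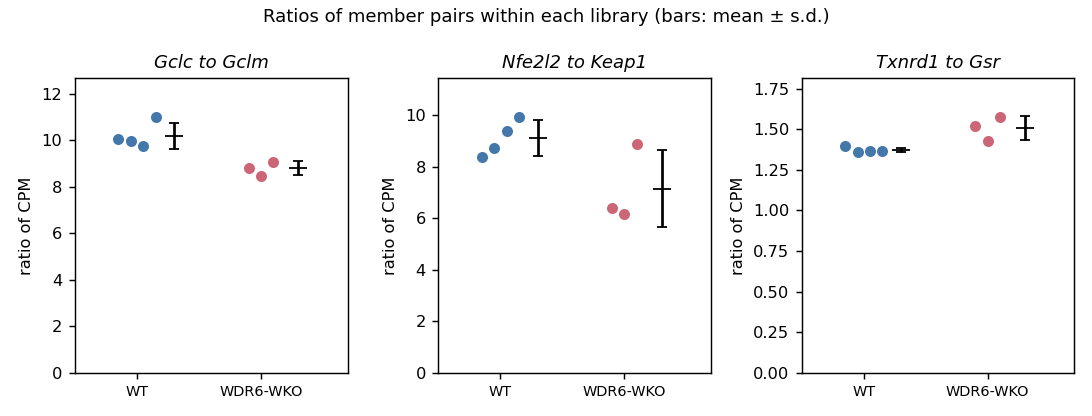
Ratios of CPM between pairs of members in each library (vertical axes from 0), with WT in blue, WDR6-WKO in red and mean ± s.d. in black. *Gclc* to *Gclm* was 9.76 to 11.0 in WT and 8.47 to 9.07 in WDR6-WKO libraries, *Txnrd1* to *Gsr* was higher in all 3 WDR6-WKO libraries, and *Nfe2l2* to *Keap1* overlapped.

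Thioredoxin reductase 1, encoded by *Txnrd1*, keeps cytosolic thioredoxin reduced, and sulfiredoxin, encoded by *Srxn1*, restores peroxiredoxins that have been over-oxidised. *Srxn1* (chr2:152105516-152111376, plus strand) was at 314, 297, 294 and 296 CPM in WT and at 351, 353 and 330 CPM in WDR6-WKO libraries. All 3 WDR6-WKO libraries were above all WT libraries, replicate 3 the least so. The level was 14.8% higher, at 345 ± 13.2 CPM over the WDR6-WKO beside 300.4 ± 9.12 CPM over the WT libraries. The log2 fold change was 0.20 (standard error 0.05, 95% interval 0.10 to 0.30, edgeR adjusted p = 0.0105), and the exact permutation p was 0.0286. *Srxn1* was no longer called without WDR6-WKO replicate 1 (edgeR adjusted p = 0.0548), while without replicate 3 its log2 fold change was 0.23 (edgeR adjusted p = 4.28e-05).

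*Txnrd1* was at 826, 812, 777 and 774 CPM in WT and at 846, 828 and 852 CPM in WDR6-WKO libraries. The groups were separated by a small margin, between WT replicate 1 and WDR6-WKO replicate 2. Its log2 fold change was 0.08 (95% interval -0.01 to 0.17), and it did not pass the test (edgeR adjusted p = 0.260, exact permutation p = 0.0571).

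*G6pdx* encodes glucose-6-phosphate dehydrogenase, the entry enzyme of the pentose phosphate pathway and a main source of NADPH. It was at 69.8, 72.8, 63.9 and 71.3 CPM in WT and at 79.3, 80.3 and 76.4 CPM in WDR6-WKO libraries. No WDR6-WKO library overlapped with WT, and the exact permutation p was 0.0286. The log2 fold change of 0.18 (95% interval 0.06 to 0.30) just missed the threshold over all genes (edgeR adjusted p = 0.0542). It passed without WDR6-WKO replicate 3, at 0.20 (edgeR adjusted p = 0.00758). Leaving out any other library did not give a call (edgeR adjusted p up to 0.174). Exons of *G6pdx* overlap the antisense gene *Ikbkg* over 418 bases, and 16.9% of the 50-base sequences of *G6pdx* occur in *Ikbkg* or *G6pd2*, so its counts are uncertain. *Ikbkg* was at 208 to 223 CPM in WT and at 199 to 210 CPM in WDR6-WKO libraries, with a log2 fold change of -0.10 (edgeR adjusted p = 0.174).

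*Nqo1* encodes a quinone reductase that is widely used as a readout of NRF2 activity. It was counted at 12.0, 14.0, 13.3 and 14.0 CPM in WT and at 16.1, 15.5 and 16.1 CPM in WDR6-WKO libraries. The WDR6-WKO values lay close together and above all WT values, whose lowest was replicate 1. The log2 fold change was 0.25 (standard error 0.09, 95% interval 0.06 to 0.45), the largest of the members that were above 0, and did not pass the adjusted threshold (edgeR adjusted p = 0.0749, exact permutation p = 0.0286).

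*Hmox1* encodes haem oxygenase 1, which opens haem to biliverdin, carbon monoxide and iron, and responds strongly to many stresses. It was at 561, 543, 542 and 541 CPM in WT and at 536, 541 and 483 CPM in WDR6-WKO libraries. Replicates 1 and 2 of WDR6-WKO were close to WT and replicate 3 was lower than all other libraries. Its log2 fold change was -0.07 (95% interval -0.18 to 0.03, edgeR adjusted p = 0.357), and without replicate 3 it was -0.02 (-0.10 to 0.05). The interval from all 7 libraries allows a log2 change between -0.18 and 0.03.

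**Figure D3:**
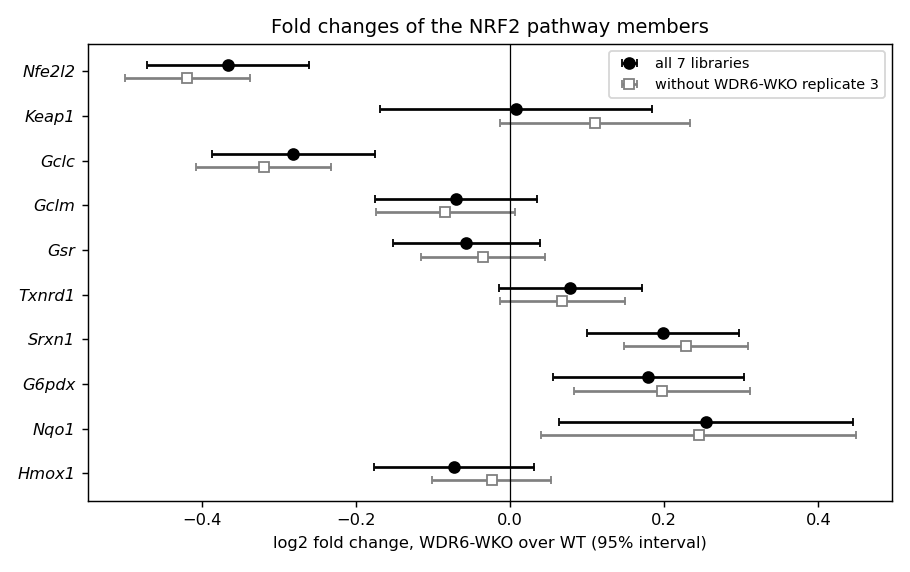
Log2 fold change of WDR6-WKO over WT hepatocytes (horizontal axis) for each member with its 95% interval, from all 7 libraries (black circles) and without WDR6-WKO replicate 3 (open grey squares). The intervals of *Nfe2l2* and *Gclc* lie below 0 and those of *Srxn1*, *G6pdx* and *Nqo1* above 0 in both fits, before adjustment over all genes. The other 5 span 0.

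Per kilobase of annotated exon, which allows levels of different genes to be compared, *Gclc* was the most abundant member in WT at 667 ± 19.4 CPM per kb (mean ± s.d., n = 4). *Hmox1* followed at 312 ± 5.42 and *Gsr* at 211 ± 5.65 CPM per kb. *Nfe2l2* (112 to 118 CPM per kb over the WT libraries), *Txnrd1* (109 to 117) and *Srxn1* (104 to 111) came next. *Txnrd1* overlapped with each of its neighbours in this order, while *Nfe2l2* and *Srxn1* did not overlap with each other. *Gclm* was at 39.3 ± 1.79, *G6pdx* at 22.6 ± 1.27, *Keap1* at 10.2 ± 0.591 and *Nqo1* at 8.59 ± 0.614 CPM per kb, none of them overlapping with the next. In WDR6-WKO hepatocytes *Nfe2l2*, at 88.7 ± 5.64 CPM per kb (mean ± s.d., n = 3), was below *Srxn1* at 122 ± 4.69 and *Txnrd1* at 119 ± 1.71, and *Keap1* and *Nqo1* overlapped. Isoforms shorter than the annotated union make such values approximate. Together the members took 0.534 to 0.565% of all counts in WT and 0.497 to 0.520% in WDR6-WKO libraries, a sum that *Gclc* dominates.

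Of 14 regulators and partners of NRF2, 4 were called higher (28.6%, against 6.65% of all genes) and none lower, with a median log2 fold change of 0.12. *Sqstm1* encodes p62, an autophagy receptor that binds KEAP1 and is itself an NRF2 target. It was at 1401, 1296, 1201 and 1213 CPM in WT and at 1832, 2196 and 1680 CPM in WDR6-WKO libraries. All WDR6-WKO values were above the WT range, at a log2 fold change of 0.57 (standard error 0.08, edgeR adjusted p = 9.88e-04). Its exons overlap the antisense gene *Mrnip*, which was at no more than 0.898 CPM in any library. *Mafk* and *Mafg* encode small MAF proteins, the DNA-binding partners of NRF2 and of its competitor BACH1. Their log2 fold changes were 0.38 (edgeR adjusted p = 0.00318) and 0.18 (edgeR adjusted p = 0.0485). The third small MAF gene, *Maff*, stood at 0.27 (edgeR adjusted p = 0.0617). *Mafg* and *Maff* lay on either side of the threshold by a small margin. *Mafg* lost its call in 9 of 14 alternative settings and *Maff* gained one in 4, so that DESeq2 and the replicate block called *Maff* and not *Mafg*. *Nfe2l1*, which encodes the related factor NRF1, was higher by 0.27 on the log2 scale (edgeR adjusted p = 0.0107), a call lost without WDR6-WKO replicate 1 or 2 (edgeR adjusted p up to 0.0699).

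The genes of the ligase that degrades NRF2 and of its competitor were not called with all 7 libraries, but were called without WDR6-WKO replicate 3. *Cul3* was at 155 to 168 CPM in WT and at 136 to 154 CPM in WDR6-WKO libraries, with separate ranges, a log2 fold change of -0.17 and an edgeR adjusted p of 0.0548. *Rbx1* had a log2 fold change of 0.10 (edgeR adjusted p = 0.409) and *Bach1* one of -0.14 (edgeR adjusted p = 0.141). Without replicate 3 the log2 fold changes were -0.22 for *Cul3* (edgeR adjusted p = 3.23e-04), -0.18 for *Bach1* (edgeR adjusted p = 0.0127) and 0.17 for *Rbx1* (edgeR adjusted p = 0.0495). *Cul3* was also called with DESeq2 (adjusted p = 0.0438). In the same fit without replicate 3, 8 of the 14 regulators were called higher and 2 lower, while 2150 and 2083 genes were called over the whole table.

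Among 35 other genes known as NRF2 targets, 3 were called higher and 9 lower, and the median log2 fold change was -0.06. The share called lower was 25.7%, beside 6.18% of all genes. The list held 9 higher and 11 lower calls when WDR6-WKO replicate 3 was left out. *Cyp2a5*, a cytochrome P450 that oxidises coumarin and nicotine, was at 26.2 to 32.0 CPM in WT and at 10.7 to 13.3 CPM in WDR6-WKO libraries, a log2 fold change of -1.19 (standard error 0.10, edgeR adjusted p = 1.12e-06). It shares 37.0% of its 50-base sequences with other genes, so reads of *Cyp2a4* may be among its counts. *Gstm1*, a glutathione S-transferase, was at 207 to 235 CPM in WT and at 166 to 177 CPM in WDR6-WKO libraries, at a log2 fold change of -0.40 (edgeR adjusted p = 1.27e-04), and shares 18.9% of its 50-base sequences with other genes. *Osgin1*, an oxidative stress-induced growth inhibitor, was higher, at 716 to 806 CPM in WT and 865 to 1113 CPM in WDR6-WKO libraries (log2 fold change 0.40, edgeR adjusted p = 0.00202). The other higher genes were *Slc7a11* and *Taldo1*, the latter a pentose phosphate enzyme outside the rule for named genes, at a log2 fold change of 0.17 (edgeR adjusted p = 0.0310).

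In glutathione synthesis and use, 7 of 26 genes were called higher and 1 lower, with a median of 0.07. The share called higher was 26.9%, beside 6.65% of all genes. The calls were 10 higher and 3 lower when WDR6-WKO replicate 3 was left out. The higher genes with the smallest p supply or consume the amino acids of glutathione. *Slc3a2* and *Slc7a11* encode the chains of the cystine–glutamate exchanger, *Cth* the enzyme that releases cysteine from cystathionine, and *Chac1* an enzyme that cleaves glutathione. *Slc7a11* was at 157, 162, 145 and 154 CPM in WT and at 210, 226 and 250 CPM in WDR6-WKO libraries, all of them above WT, at a log2 fold change of 0.56 (edgeR adjusted p = 1.47e-05). *Chac1* was at 10.2, 7.49, 4.79 and 6.83 CPM in WT and at 37.3, 40.4 and 31.1 CPM in WDR6-WKO libraries, the steepest rise of the list at a log2 fold change of 2.31 (standard error 0.19, edgeR adjusted p = 5.48e-05). *Cth* had a log2 fold change of 1.07 (edgeR adjusted p = 3.43e-06) and *Slc3a2* one of 0.71 (edgeR adjusted p = 3.02e-06).

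*Gss*, the enzyme that adds glycine to finish glutathione after the ligase, was at 96.7 to 106 CPM in WT and at 99.2 to 105 CPM in WDR6-WKO libraries (log2 fold change 0.02, edgeR adjusted p = 0.874). The lower gene was *Oplah*, a 5-oxoprolinase that recycles glutamate in glutathione turnover and lies outside the rule for named genes, at a log2 fold change of -0.34 (edgeR adjusted p = 0.0238). Among the genes of glutathione synthesis the changes went both ways, with *Gclc* lower, *Gclm* and *Gss* not called, and the genes of cystine entry and cysteine release higher.

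Of the 7 higher genes in glutathione synthesis and use, 3 are also on a list of targets of ATF4, the transcription factor of the amino acid response. On that list 20 of 21 genes were called higher (95.2%) with a median log2 fold change of 0.71, and it holds none of the 10 members. *Psph*, which makes serine, had a log2 fold change of 0.99 (edgeR adjusted p = 7.60e-07), and *Psat1*, the enzyme before it, 0.96 (edgeR adjusted p = 7.81e-07). *Aldh18a1*, of proline synthesis, stood at 1.09 (edgeR adjusted p = 7.81e-07) and *Mthfd2*, of mitochondrial folate metabolism, at 1.35 (edgeR adjusted p = 1.04e-06). The ATF4 list, drawn up like the others with earlier results of these data known, leaves out *Cth* and *Slc1a5*. *Slc1a5*, an amino acid transporter outside the rule for named genes, had a log2 fold change of 0.33 (edgeR adjusted p = 0.0313). The split by that list is therefore a description, and the part of ATF4 was not tested. Off that list, 12 of 118 genes of the wider NRF2 and antioxidant lists, *Cth* and *Slc1a5* among them, were called higher. This is 10.2%, beside 6.65% of all genes.

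*Slc7a11* and *Chac1* are shown for their matches to TGATGNAA, the composite element bound by ATF4 with C/EBP partners, in capitals and in the same RefSeq windows. It was searched on both strands and appears as TTNCATCA on the opposite one.
*Slc7a11*, chr3:50443633-50443699, minus strand: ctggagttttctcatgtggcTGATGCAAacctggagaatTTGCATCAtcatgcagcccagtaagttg
*Chac1*, chr2:119351029-119351076, plus strand: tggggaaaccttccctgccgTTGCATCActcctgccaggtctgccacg
The matches of *Slc7a11* began 66 and 47 bases before its start and face each other, and that of *Chac1* lay 193 bases before its start. None of the 9 windows of the members held this motif. It was found in only 3.97% of all windows, so its absence from 9 is unremarkable and does not set the members apart. The windows of *Sqstm1* and *Osgin1*, the only other non-members looked at singly, held no match either. Those of the other genes on the ATF4 list were not looked at singly. The windows of *Slc7a11* and *Chac1* held no core antioxidant motif.

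**Figure D4:**
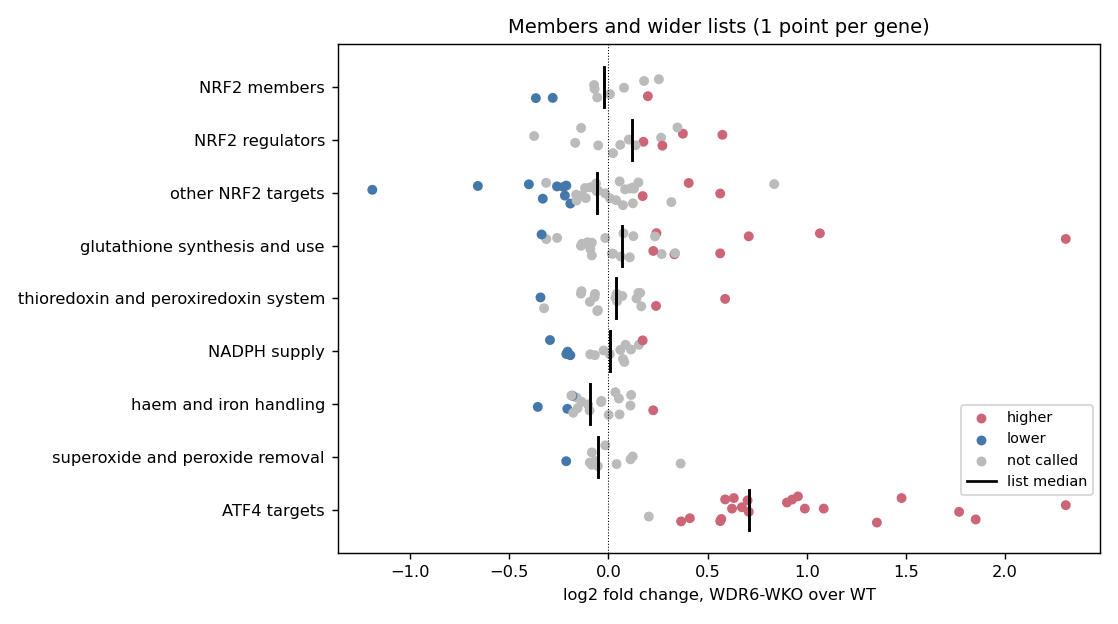
Log2 fold change of WDR6-WKO over WT hepatocytes (horizontal axis) for each gene tested on 9 lists (rows, points spread vertically for legibility), red for genes called higher, blue for genes called lower and grey for genes not called, with the median of each list as a black line. The medians of the NRF2 and antioxidant lists lie between -0.10 and 0.12, and that of the ATF4 list at 0.71.

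In the thioredoxin and peroxiredoxin system 2 of 20 genes were called higher and 1 lower, 15% in all beside 12.8% of all genes. There were 4 higher and 5 lower calls when WDR6-WKO replicate 3 was left out. *Sesn2*, a sestrin that supports the repair of peroxiredoxins and is also on the ATF4 list, had a log2 fold change of 0.59 (edgeR adjusted p = 4.31e-05), whereas its relative *Sesn3* had one of -0.34 (edgeR adjusted p = 0.00475). *Txn2*, mitochondrial thioredoxin, was higher by 0.24 on the log2 scale (edgeR adjusted p = 0.0148), and lost its call without WT replicate 2, WT replicate 3, WDR6-WKO replicate 1 or WDR6-WKO replicate 2 (edgeR adjusted p up to 0.0943). Cytosolic *Txn1*, the substrate of thioredoxin reductase 1, had a log2 fold change of 0.15 (edgeR adjusted p = 0.116), *Prdx1*, a substrate of sulfiredoxin, one of -0.05 (edgeR adjusted p = 0.611), and mitochondrial *Txnrd2* one of 0.05 (edgeR adjusted p = 0.790). Without WDR6-WKO replicate 3, *Txn1* was called higher at 0.22 (edgeR adjusted p = 9.66e-05) and *Prdx1* lower at -0.15 (edgeR adjusted p = 0.00418). *Txnip*, the thioredoxin inhibitor, stood at 0.04 (edgeR adjusted p = 0.794).

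Among 15 genes of NADPH supply 4 were called lower (26.7%, beside 6.18% of all genes) and 1 higher. Without WDR6-WKO replicate 3 the calls were 4 lower and 4 higher. The lower genes were *Nadk2*, the mitochondrial NAD kinase, at -0.29 (edgeR adjusted p = 0.00527), the isocitrate dehydrogenases *Idh1* at -0.19 (edgeR adjusted p = 0.0233) and *Idh2* at -0.21 (edgeR adjusted p = 0.0289), and malic enzyme, *Me1*, at -0.21 (edgeR adjusted p = 0.0251), all as log2 fold changes. Of 14 alternative settings, *Idh1* and *Idh2* lost their calls in 6 each and *Me1* in 4, among them the fits without WDR6-WKO replicate 1 or 2. In the oxidative pentose phosphate steps after *G6pdx*, *Pgd* had a log2 fold change of 0.07 (edgeR adjusted p = 0.470), and was called without WDR6-WKO replicate 3 (edgeR adjusted p = 0.0152). The higher gene was *Taldo1*. *Nnt*, a mitochondrial transhydrogenase outside the rule for named genes, was at 0.691 to 1.20 CPM in WT and 0.662 to 1.496 CPM in WDR6-WKO libraries. C57BL/6J mice are known to carry a deletion in this gene.

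In haem and iron handling 1 of 19 genes was called higher (5.26%, beside 6.65% of all genes) and 3 lower (15.8%, beside 6.18%), with a median log2 fold change of -0.10. *Slc40a1*, the iron exporter ferroportin and an NRF2 target, was at 293 to 309 CPM in WT and at 225 to 251 CPM in WDR6-WKO libraries (log2 fold change -0.36, edgeR adjusted p = 1.97e-04). *Alas1* and *Fech*, the first and last enzymes of haem synthesis, had log2 fold changes of -0.18 (edgeR adjusted p = 0.0291) and -0.21 (edgeR adjusted p = 0.0123), and *Cpox*, which acts between them, one of 0.23 (edgeR adjusted p = 0.0301). *Alas1* lost its call in 6 of 14 alternative settings, among them library sizes alone and the removal of any WT library, and *Cpox* in 4, all of them fits with 1 library left out. Leaving out WDR6-WKO replicate 3 gave 2 higher and 4 lower calls. Beside *Hmox1*, biliverdin reductase *Blvrb* (-0.16, edgeR adjusted p = 0.166) and the ferritin chains *Fth1* (0.06, edgeR adjusted p = 0.540) and *Ftl1* (0.11, edgeR adjusted p = 0.282) were not called. *Ftl1* was called without replicate 3 (edgeR adjusted p = 0.0113), and shares 58.4% of its 50-base sequences with other genes.

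Of 11 genes that remove superoxide and peroxide, 1 was called, catalase (9.09%, beside 12.8% of all genes), whereas 3 were called higher and 4 lower without WDR6-WKO replicate 3. *Cat* was at 728 to 787 CPM in WT and at 635 to 680 CPM in WDR6-WKO libraries, a log2 fold change of -0.21 (edgeR adjusted p = 0.00625). The aryl hydrocarbon receptor is another inducer of *Nqo1*. Of its 4 target genes tested, 1 was called higher (25%, beside 6.65% of all genes) and 1 lower (25%, beside 6.18%). Their log2 fold changes ran from -0.71 to 0.77, and the part of this receptor was not tested. *Tiparp* was higher by 0.34 (edgeR adjusted p = 0.0163) and *Cyp1a2* had a log2 fold change of -0.45 (edgeR adjusted p = 0.0227). *Cyp1a1*, not called, was at no more than 0.748 CPM in any library. *Tiparp* lost its call without WT replicate 4, and *Cyp1a2* in 4 fits with 1 library left out. Counted once each, the 122 genes on the 7 NRF2 and antioxidant lists held 16 higher and 17 lower calls. These were 27% in all, beside 12.8% of all genes, with a median log2 fold change of 0.01. Without WDR6-WKO replicate 3 the higher and lower calls became 35 and 27.

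The cell type label was checked with marker genes. *Alb*, at 6087 to 7934 CPM, *Apob* and *Ttr* marked all libraries as hepatocyte-rich. Levels differed widely between hepatocyte markers. *Cps1*, at 22.9 to 44.4 CPM, and *Cyp2e1*, at 13.3 to 19.6 CPM, were far below *Alb*, and *Tat*, at 0.503 to 2.13 CPM, was close to absent. Of 11 hepatocyte markers 5 were called lower (45.5%, beside 6.18% of all genes) and none higher. Their summed level was 15809 to 18775 CPM in WT and 14251 to 16283 CPM in WDR6-WKO libraries. Of 15 Kupffer cell and macrophage markers 4 were called higher (26.7%, beside 6.65% of all genes) and none lower. Their sum was 936 to 1030 CPM in WT and 1100 to 1282 CPM in WDR6-WKO libraries. The sums were 417 to 476 and 392 to 463 CPM for 10 sinusoidal endothelial markers, 592 to 651 and 636 to 694 CPM for 10 stellate cell markers, and 3072 to 3365 and 3716 to 4308 CPM for 6 bile duct markers, most of the last being *Spp1*. In these 3 lists 0, 2 and 2 markers were called higher, or 0%, 20% and 33.3%, beside 6.65% of all genes. In each, 1 was called lower, or 10%, 10% and 16.7%, beside 6.18%. No marker tested was at 0 in every library. *Gclc* and *Nfe2l2* moved in the direction of the hepatocyte markers, and *Srxn1* in that of the macrophage markers, and the part of cell composition in these changes was not tested. In bulk samples fewer cells of a type and less RNA per cell cannot be told apart.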

How the data were processed

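RNA of 7 primary hepatocyte samples was sequenced. The authors prepared libraries with a NEBNext Ultra kit, aligned reads to the mouse genome (GRCm38, mm10) with Bowtie 2.2.3 and deposited raw, whole-number counts of reads on each gene symbol. How the counting treated strand, with which tool and annotation, is not given in the sources used here. The table has 14819 rows, 21 of them with spreadsheet dates in place of symbols, and no row total under 50. Column names gave the sample of every column.

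Counts were scaled with TMM, filtered with filterByExpr and tested with edgeR 4.0.16 (R 4.3.3), using the robust quasi-likelihood test with Benjamini-Hochberg adjustment over 14779 genes. Exact permutation tests compared mean log2 CPM over all 35 assignments of the samples. All p-values are two-sided. The steps were tested on simulated data. Alternatives were DESeq2 1.42.0 (the study's test), library sizes alone, median-of-ratios scaling, limma-voom (limma 3.58.1), 2 other filters, a replicate block, each library left out, and the study's thresholds. Groups were taken from the labels. Counts of every pair of libraries of a group differed by more than sampling noise.

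The members and the gene lists were chosen with earlier results of these data known. Named genes were the members, *Wdr6*, up to 4 called genes with the smallest p per list, and uncalled genes fixed by name. Most of the last sit beside a member in a reaction or complex, but *Cyp1a1* does not. *Taldo1*, *Oplah*, *Nnt*, *Slc1a5*, the cell type markers cited singly and the overlapping genes were named after their values were seen. Listed genes with no row in the table were not analysed here. Gene positions and exon overlaps came from GENCODE M21 on GRCm38, and a gene's share of 50-base sequences found in other transcripts was computed from the same release.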

Additional observations from a re-analysis of the deposited data

Results flagged for a closer look

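In 4 of the 54 named genes, 1 WT library lay farther from the other 3 than Dixon's test at the 95% level allows, and chance alone is expected to do this in about 1 in 20 groups. *Hmox1* was at 561 CPM in WT replicate 1, with the others at 541 to 543 CPM, and *Srxn1* was at 314 CPM in the same library, with the others at 294 to 297 CPM. *Gstm1* was at 207 CPM in WT replicate 3, with the others at 232 to 235 CPM. *Txnip* was at 40.9 CPM in WT replicate 4, with the others at 35.1 to 35.6 CPM. The WDR6-WKO group, with 3 samples, was too small for this test.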

How the results depend on the processing

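Of 755 recomputed fold changes of 54 named genes, none reversed a call, 47 lost it and 15 gained it. Among the members, *Nfe2l2* and *Gclc* were called lower in every setting with an adjusted p, *Srxn1* lost its call only without WDR6-WKO replicate 1, and *G6pdx* gained one in 3 settings. Members called higher, 1 in the reported fit, became 2 with library sizes alone, 2 with the replicate block, 0 with the study's thresholds (unadjusted p under 0.05 and a log2 change of 0.35 or more either way), and 0 to 2 with each library left out. Members called lower, 2 in the reported fit, became 1 with the study's thresholds. With those thresholds the wider lists had 9 higher and 4 lower calls, instead of 16 and 17. With each library left out they had 8 to 35 higher and 11 to 27 lower calls, the median of the members ran from -0.056 to 0.022, and 1032 to 4233 genes were called over the whole table, the most without WDR6-WKO replicate 3 and the fewest without WDR6-WKO replicate 2. The replicate block called 1762 genes. The replicate numbers were not taken as pairs, because the mice of the 2 groups differ in genotype. Deviations of samples that share a number had correlations of 0.021 to 0.036. Those of samples with unlike numbers ran from -0.12 to 0.117, so the correlations do not decide whether the numbers mark pairs. Depth limits *Nqo1* most among the members, with 238 to 387 reads per library.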
